A study of Mus musculus with 12 samples.

Results

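The 10 genes described here are markers of classical monocytes, Ly6c2, Ms4a6b, Ms4a6c, Ms4a6d, Ly86, F13a1, Fn1, Lyz2, Mpeg1 and Cd300lf. They were taken from the table by their symbols, and all 10 are among the 12199 genes of the table and the 12175 that were tested. RNA came from whole bone marrow (BM) mononuclear cells of C57BL/6 mice, as raw read counts from 11 libraries: 3 WT, 3 DF (Dnmt3a+/- Flt3ITD/WT, the floxed Dnmt3a allele deleted by MxCre), 3 TF (Tet2+/- Flt3ITD/WT) and 2 TFD (Tet2+/- Flt3ITD/WT with the same floxed Dnmt3a allele and MxCre). Every group, also WT, was given poly(I:C), an RNA mimic that switches on the Mx1 promoter that drives Cre in interferon-responsive cells of marrow and other organs, so this Cre is not specific to blood cells, and no group used here carried Flt3ITD alone. WT mice came from a core facility and the mutants from crosses, so genotype and source cannot be told apart here. The comparisons ask how the monocyte genes stand when Flt3ITD, an activating duplication in a receptor tyrosine kinase, is joined by loss of 1 copy of Tet2, of Dnmt3a, or of both, enzymes that oxidise and place methyl groups on DNA. TFD replicate 3 was not analysed here.

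Classical monocytes arise in BM from granulocyte-monocyte progenitors through a monocyte progenitor, leave it in response to CCR2 ligands, and can become macrophages or dendritic cells in tissue or convert to the patrolling, Ly6C-low type. Surface Ly6C is the protein by which the mouse cells are sorted. The other markers belong to the phagocyte's equipment: membrane receptors of the Ms4a and Cd300 families, secreted proteins of clotting and matrix, and lysosomal enzymes and pores. None is confined to the monocyte, since neutrophils make Lyz2, B cells make Ly86, platelets carry F13a1 and stromal cells make Fn1. In bulk RNA of mixed cells, fewer cells of a type and less RNA per cell cannot be told apart, so each level below is that of the whole marrow sample.

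Of the 10 markers, 3 lie together in the Ms4a cluster on mouse chromosome 19, and RefSeq promoter windows were found for 8 of the 10 by symbol (build GRCm38.p6, the assembly of mm10). Fn1 and Ms4a6d were not among them. The windows of Ms4a6b (chr19:11518309-11518558, plus strand) and Ms4a6c (chr19:11469118-11469367, plus strand), the 250 bases before each start site, are shown because they share a run of 48 bases. The genes rose by different amounts, and the part of this run in those amounts was not tested. Capitals mark that run. The window of Ly6c2 (chr15:75111938-75112187, minus strand) is shown as the only one with a match to a searched motif, and there capitals mark GAGGAAGT.

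Ms4a6b: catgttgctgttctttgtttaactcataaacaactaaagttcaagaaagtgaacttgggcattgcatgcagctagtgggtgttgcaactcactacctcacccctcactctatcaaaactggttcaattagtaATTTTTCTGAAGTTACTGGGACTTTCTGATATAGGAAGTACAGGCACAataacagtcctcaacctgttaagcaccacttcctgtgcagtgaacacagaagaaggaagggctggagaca

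Ms4a6c: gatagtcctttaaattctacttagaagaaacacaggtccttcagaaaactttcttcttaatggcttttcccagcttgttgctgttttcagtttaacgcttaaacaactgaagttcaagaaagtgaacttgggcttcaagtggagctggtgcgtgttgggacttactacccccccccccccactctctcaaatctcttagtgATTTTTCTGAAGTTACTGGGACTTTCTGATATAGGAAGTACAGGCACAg

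Ly6c2: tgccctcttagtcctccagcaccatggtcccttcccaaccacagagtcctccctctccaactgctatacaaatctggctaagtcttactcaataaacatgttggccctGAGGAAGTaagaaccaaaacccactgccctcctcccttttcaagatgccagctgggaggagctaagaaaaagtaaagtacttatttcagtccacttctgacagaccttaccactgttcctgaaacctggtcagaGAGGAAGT

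The shared run lay 118 to 71 bases before the start of Ms4a6b and 49 to 2 bases before that of Ms4a6c. The next longest run shared by any pair of the 8 windows had 11 bases. GAGGAAGT, a sequence that the myeloid factor PU.1 and other ETS proteins can bind, was searched on both strands and occurred at 142 to 135 and at 8 to 1 bases before the Ly6c2 start, which RefSeq places 12 bases inside the gene's span in the table. It was present in 1 of 8 marker windows and in 2.86% of the 9245 windows of genes in the table, at 1 window a gene. TTGCNNAA, a form of the C/EBP site, was in 0 of 8 and in 7.61% of all, and GGAANNGAA, a composite ETS-IRF form, in 0 of 8 and in 6.19%. These matches describe letters in these windows and are not evidence of binding.

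The libraries held between 8274153 and 15900904 counts over the genes of the table, and the least abundant marker, Ms4a6d, still had 108 to 534 counts in each. The study's methods tie every plotted value to its own animal, but the labels do not say that the replicate libraries came from separate mice, so the p values measure the spread between these libraries, which may be technical in part. Tet2 was not below WT in the genotypes that carry 1 disrupted copy, with 7.28 ± 0.10 log2 CPM in WT libraries and 7.77 ± 0.16 in DF, and with 7.47 ± 0.33 in TF and 7.53 ± 0.26 in TFD. Dnmt3a was at 5.49 ± 0.48 in WT and 5.37 ± 0.15 in DF, and at 6.09 ± 0.30 in TF and 5.82 ± 0.07 in TFD (SD, n = 3, 3, 3 and 2). Flt3, which carries the duplication, was at 4.59 ± 0.28 in WT and 5.50 ± 0.43 in DF, and at 5.99 ± 0.19 in TF and 6.45 ± 0.81 in TFD. For Tet2 and Dnmt3a, whole-gene counts thus did not show the lesion, and a deleted segment of a gene was not examined here. Genes of neutrophils, B cells and erythroid cells were present in WT, as whole marrow should have, and the summed level of 11 B cell genes was 575 to 676 CPM in WT libraries against 19.1 to 32.1 in DF, 32.9 to 151 in TF and 27.2 to 28.5 in TFD.

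Most of the markers were higher in mutant marrow than in WT. Of 10 markers, 9 rose in DF, 7 in TF and 6 in TFD by edgeR's quasi-likelihood F test with an adjusted p under 0.05, and 0, 1 and 1 fell. Among all genes tested, 21.0% rose and 16.6% fell in DF, 19.0% rose and 15.6% fell in TF, and 14.7% rose and 11.6% fell in TFD. In DF the genome-wide split depended on scaling, since library totals in place of TMM factors gave 15.8% higher and 21.5% lower, while the count of markers called stayed at 9. The markers had a median log2 fold change of 1.14 (DF), 1.20 (TF) and 0.90 (TFD), beside medians over all genes of 0.05, 0.02 and 0.01. The 3 comparisons share the WT libraries. The 6 markers called higher in each mutant genotype were Ms4a6b, Ms4a6c, Ly86, F13a1, Fn1 and Mpeg1, a pattern met by 11.1% of all genes. With Ly6c2 added, 7 markers were higher in each of the 8 mutant libraries than in every WT library, as were 16.0% of all genes. The shares of all counts show the same shift. The markers took 0.886% to 1.18% of the counts in WT libraries, 1.80% to 1.96% in DF libraries, 1.50% to 1.79% in TF and 1.41% to 1.87% in TFD. Lyz2 was the larger part of these shares in every library but TFD replicate 2. Without it the other 9 markers took 0.248% to 0.281% in WT and 0.604% to 0.794% in the mutants, with no overlap.

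**Figure D1:**
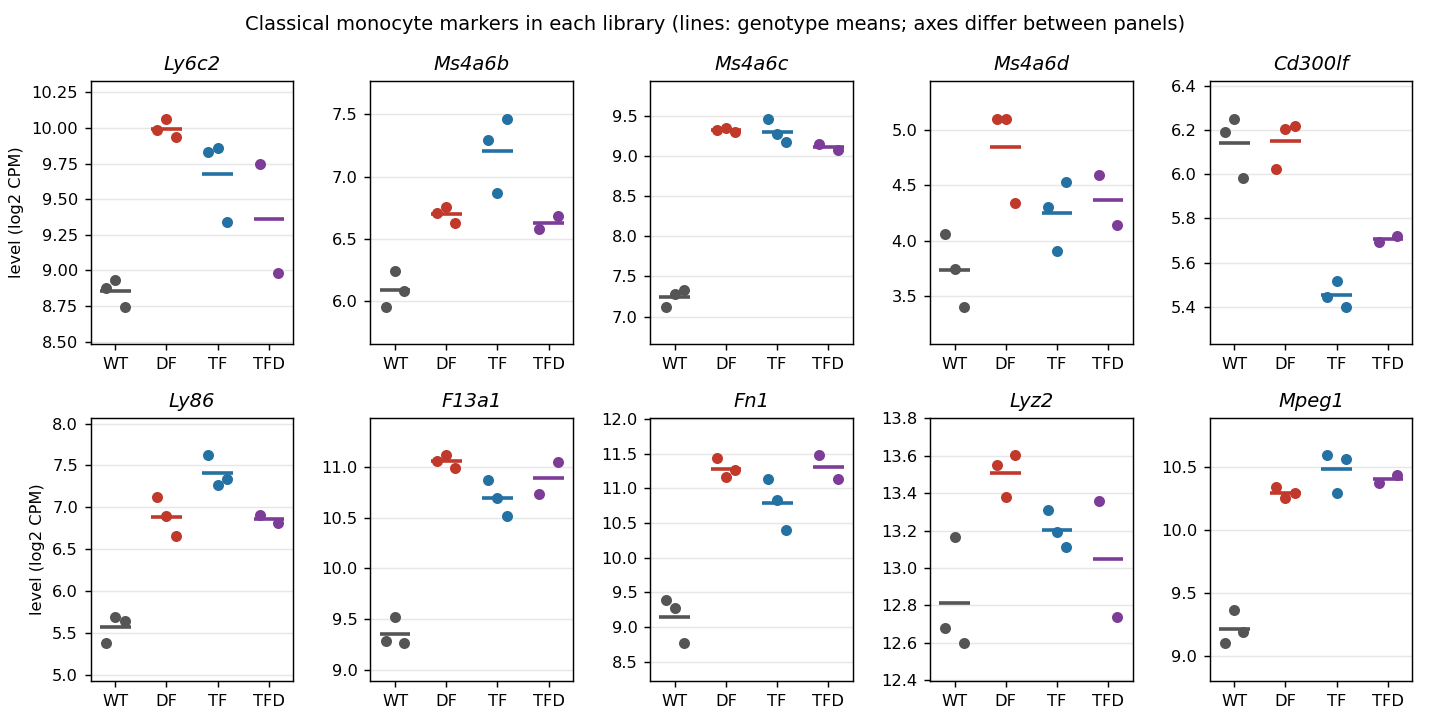
Level of each marker (vertical axis, log2 CPM, a different range in each panel) in each library, by genotype, with a line at the genotype mean. The 8 mutant libraries lie above the 3 WT libraries for 7 markers, and the TF and TFD libraries lie below WT for Cd300lf.

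Among the surface proteins, Ly6c2 (chr15:75108161-75111949, minus strand) encodes Ly6C. Its level was 8.88, 8.93 and 8.75 log2 CPM in the WT libraries, 9.98, 10.07 and 9.93 in DF, 9.84, 9.86 and 9.34 in TF, and 9.75 and 8.98 in TFD. Every mutant library was above WT, but TFD replicate 2 exceeded the highest WT library only narrowly. Ly6c2 rose 2.21-fold in DF (log2 fold change 1.14 ± 0.19, SE, adjusted p = 0.000535) and 1.80-fold in TF (0.85 ± 0.19, adjusted p = 0.00409). In TFD the log2 fold change was 0.56 ± 0.21 and missed the threshold (adjusted p = 0.0611), and it turned on the library, at 0.90 without TFD replicate 2 (adjusted p = 0.00778) and 0.13 without TFD replicate 1 (0.693). Of the 50-base stretches in its GENCODE transcripts, 14.4% also occur in transcripts of other genes, mainly its neighbour Ly6c1, which was not analysed here. Reads from such stretches may not align uniquely, so the level of Ly6c2 rests on the rest of the transcript.

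The Ms4a genes encode membrane proteins with several passes through the membrane, of the family that also includes CD20. Ms4a6c (chr19:11469368-11482196, plus strand) was among the markers that rose most. In WT it was at 7.12, 7.28 and 7.33 log2 CPM, in DF at 9.32, 9.35 and 9.30, in TF at 9.47, 9.28 and 9.18, and in TFD at 9.15 and 9.07. The genotypes were nearly level with each other and far above WT, with rises of 4.22-fold in DF (adjusted p = 1.07e-06), 4.18-fold in TF (3.27e-07) and 3.64-fold in TFD (2.49e-06). Ms4a6b (chr19:11518559-11530403, plus strand) read 5.95, 6.24 and 6.08 in WT, 6.71, 6.75 and 6.63 in DF, 7.29, 6.87 and 7.47 in TF, and 6.57 and 6.68 in TFD. Its rise was 1.52-fold in DF (adjusted p = 0.00491), 2.20-fold in TF (8.94e-05) and 1.45-fold in TFD (0.0218). The TFD call was lost when either TFD library was left out, with adjusted p = 0.0527 without replicate 1 and 0.0945 without replicate 2, and also without WT replicate 1 (0.0669) or 3 (0.0570).

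Ms4a6d (chr19:11586606-11604804, minus strand) was the lowest of the Ms4a6 genes and the most scattered. Its levels were 4.06, 3.74 and 3.40 in WT, 5.10, 5.10 and 4.34 in DF, 4.31, 3.91 and 4.53 in TF, and 4.59 and 4.14 in TFD. DF stood clear of WT, whereas TF replicate 2 lay inside the WT range. It rose 2.20-fold in DF (1.14 ± 0.24, adjusted p = 0.00283), and the log2 fold changes in TF (0.51 ± 0.24, adjusted p = 0.122) and TFD (0.63 ± 0.26, adjusted p = 0.0985) did not pass the test. Without TFD replicate 1 the TFD value was 0.38 (adjusted p = 0.466). Because Ms4a6c rose more than Ms4a6b, the distance between these neighbours widened within libraries. Per kilobase of exon, Ms4a6c exceeded Ms4a6b by 0.87 ± 0.11 on the log2 scale in WT libraries and by 2.35 ± 0.04 in DF, 1.82 ± 0.36 in TF and 2.20 ± 0.13 in TFD libraries (SD). The lowest mutant library was at 1.43 and the highest WT library at 0.97. Shared 50-base stretches made up 10.5% of Ms4a6c, 3.57% of Ms4a6b and 2.54% of Ms4a6d, mostly with each other. On the other strand of Ms4a6c lies the noncoding BE692007, for which the table has no row, and the strand setting of the counting is not given in the sources used here.

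Cd300lf (chr11:115116214-115133992, minus strand), an inhibitory immunoglobulin-like receptor of myeloid cells, went against the other markers. It was at 6.19, 6.25 and 5.98 log2 CPM in WT and 6.02, 6.20 and 6.22 in DF, but at 5.44, 5.52 and 5.40 in TF and 5.69 and 5.72 in TFD. All TF and TFD libraries were below every WT and DF library. TF libraries fell by 0.69 ± 0.10 on the log2 scale (adjusted p = 0.000353), and TFD libraries fell by 0.44 ± 0.12 (adjusted p = 0.0141). In DF it stood at 0.01 ± 0.10 (adjusted p = 0.965), and its sign depended on the scaling. The TFD call was lost without TFD replicate 1 (adjusted p = 0.0677) or 2 (0.0564). Cd300lf lies inside the span of Rab37 on the other strand, but their exons share 0 bases. Rab37 rose in DF (0.86 on the log2 scale, adjusted p = 0.0238), where Cd300lf was not called. In TF (0.36, adjusted p = 0.328) and TFD (0.52, 0.221), where Cd300lf fell, Rab37 was not called.

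The genes F13a1, Fn1 and Ly86 rose in each mutant genotype. F13a1 (chr13:36867178-37050244, minus strand) encodes the A subunit of clotting factor XIII, a transglutaminase that cross-links fibrin. Its level was 9.28, 9.52 and 9.26 log2 CPM in WT, 11.07, 11.12 and 10.99 in DF, 10.87, 10.70 and 10.51 in TF, and 10.74 and 11.06 in TFD. The rise was 3.25-fold in DF (adjusted p = 8.12e-06), 2.54-fold in TF (3.29e-05) and 2.92-fold in TFD (2.89e-05). Among 10 megakaryocyte and platelet genes, the other source of factor XIII A, 0 rose and 4 fell in DF, 0 rose and 1 fell in TF, and 2 rose and 0 fell in TFD. F13a1 and Ly86 are next to each other among the genes of the table, with 295101 bases between them.

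Fn1 (chr1:71585473-71653234, minus strand) encodes fibronectin, an adhesive protein of the extracellular matrix. It was at 9.39, 9.27 and 8.77 log2 CPM in WT, 11.43, 11.16 and 11.27 in DF, 11.13, 10.84 and 10.40 in TF, and 11.48 and 11.13 in TFD. The groups were a full log2 unit apart at their closest, between WT replicate 1 and TF replicate 3. Fn1 rose 4.35-fold in DF (2.12 ± 0.21, adjusted p = 2.09e-05), 3.15-fold in TF (1.65 ± 0.21, 0.00011) and 4.43-fold in TFD (2.15 ± 0.23, 4.08e-05). Of 9 stromal and endothelial genes, 2 rose and 2 fell in DF, 1 rose and 1 fell in TF, and 1 rose and 0 fell in TFD. The part of these cells in the Fn1 result was not tested. Among 11 genes of fibronectin receptors and clot enzymes, 4 rose and 1 fell in DF, 4 and 2 in TF, and 5 and 1 in TFD. In TFD versus WT they ran from Pros1, a cofactor of anticoagulant protein C (log2 fold change 1.67, adjusted p = 0.00026), to Tgm2, a tissue transglutaminase (−1.55, adjusted p = 0.00558).

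Ly86 (chr13:37345345-37419036, plus strand) encodes MD-1, the secreted protein that holds the Toll-like receptor relative CD180 at the cell surface. In WT it was at 5.37, 5.69 and 5.65 log2 CPM. It reached 7.12, 6.89 and 6.65 in DF, 7.62, 7.26 and 7.34 in TF, and 6.91 and 6.81 in TFD, so that TF was above DF and TFD in every library. The rise was 2.51-fold in DF (adjusted p = 3.11e-05), 3.58-fold in TF (3.53e-06) and 2.44-fold in TFD (9.95e-05). Cd180 itself rose in DF (0.60 on the log2 scale, adjusted p = 0.0463) and TF (1.22, adjusted p = 0.00123), and in TFD its log2 fold change was 0.54 (adjusted p = 0.115). Of the related pair, Tlr4, the lipopolysaccharide receptor, fell by 0.47 in TF (adjusted p = 0.0234), fell by 0.82 in TFD (0.00293) and stood at −0.10 in DF (0.589). Ly96, which encodes the Tlr4 partner MD-2, stood at −0.06 in DF, −0.16 in TF and −0.02 in TFD, none called. B cells also make Ly86, and of 11 B cell genes 0 rose while 11 fell in DF, 10 in TF and 11 in TFD.

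Lyz2 and Mpeg1 act in the phagocyte's granules and lysosomes. Lyz2 (chr10:117277541-117282272, minus strand) encodes lysozyme M, which cuts bacterial cell walls. It was the most abundant marker and among those that moved least, at 12.68, 13.16 and 12.60 log2 CPM in WT, 13.55, 13.38 and 13.60 in DF, 13.31, 13.19 and 13.11 in TF, and 13.36 and 12.74 in TFD. WT replicate 2 lay above TF replicate 3 and TFD replicate 2, so WT overlapped these genotypes and not DF. Lyz2 rose 1.60-fold in DF (0.68 ± 0.20, adjusted p = 0.0168). The log2 fold changes in TF (0.37 ± 0.20, adjusted p = 0.162) and TFD (0.24 ± 0.22, adjusted p = 0.441) were not called. The TF value was 0.56 without WT replicate 2 (adjusted p = 0.0609) and 0.25 without WT replicate 3 (0.392). The TFD value was −0.0957 without TFD replicate 1 and 0.52 without TFD replicate 2. The DF call was lost without WT replicate 1 (0.57, adjusted p = 0.0787), WT replicate 3 (0.53, 0.0769), DF replicate 1 (0.64, 0.0547) or DF replicate 3 (0.60, 0.0594). Neutrophils also make Lyz2, and of 11 neutrophil genes 0 rose and 0 fell in DF, 0 rose and 4 fell in TF, and 0 rose and 2 fell in TFD. Its paralog Lyz1, with 15.4% of Lyz2's 50-base stretches in common, was far lower, at 36 to 43 counts in WT, and differed from WT by 0.54 in DF (adjusted p = 0.0569), 0.82 in TF (0.00827) and 0.40 in TFD (0.221).

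Mpeg1 (chr19:12460779-12465285, plus strand) encodes perforin-2, which opens pores in engulfed bacteria. Its level was 9.10, 9.37 and 9.19 log2 CPM in WT, 10.34, 10.25 and 10.29 in DF, 10.59, 10.30 and 10.56 in TF, and 10.37 and 10.44 in TFD. The mutant libraries were close to each other and all above WT. Mpeg1 rose 2.10-fold in DF (1.07 ± 0.13, adjusted p = 4.97e-05), 2.40-fold in TF (1.27 ± 0.13, 1.89e-05) and 2.27-fold in TFD (1.18 ± 0.14, 7.8e-05). Around both, 11 lysozyme and lysosome genes of phagocytes counted 8 higher in DF, 9 in TF and 7 in TFD, with 0 lower in each. In TFD versus WT they ran from Psap, the precursor of activators of sphingolipid breakdown (log2 fold change 1.73, adjusted p = 8.74e-06), to the protease gene Ctsd (−0.37, adjusted p = 0.10).

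**Figure D2:**
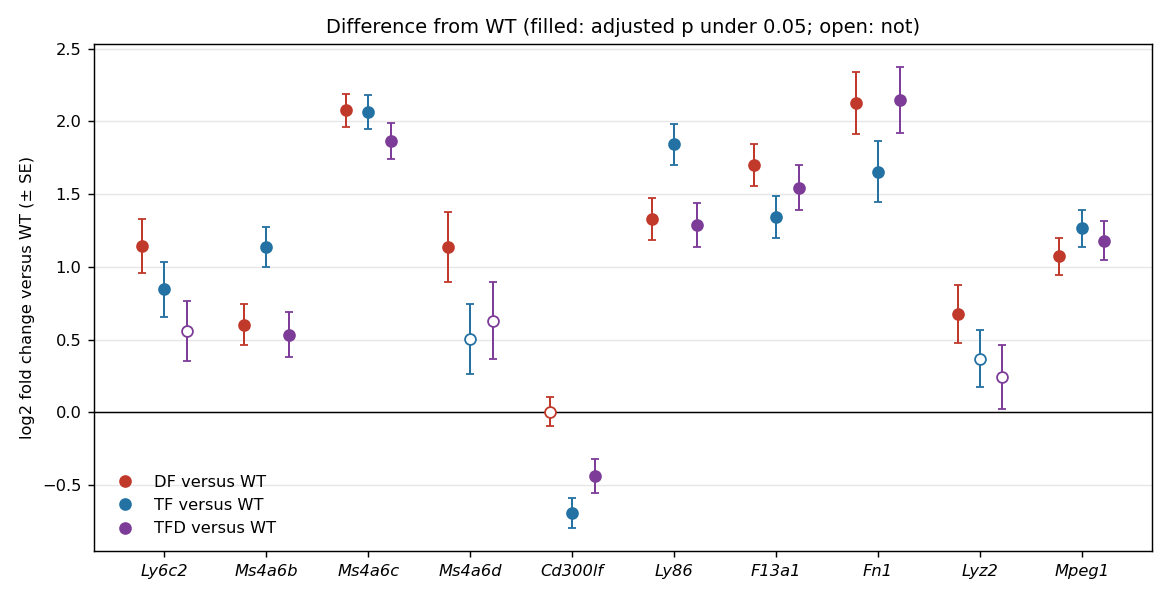
Difference of each marker from the same WT libraries as a log2 fold change in the 3 mutant genotypes (vertical axis, ± SE), filled where the adjusted p was under 0.05. Fn1 rose most in DF and TFD and Ms4a6c in TF, Lyz2 was called in DF only among these comparisons, and Cd300lf fell in TF and TFD.

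Levels can be compared between the markers per kilobase of exon (RPKM, from CPM and the deposited gene length). Lyz2 led in all genotypes, followed by Ly6c2 and F13a1, and Ms4a6d was last. In WT the log2 RPKM was 12.73 ± 0.31 for Lyz2, 9.17 ± 0.10 for Ly6c2, 7.38 ± 0.15 for F13a1 and 7.10 ± 0.14 for Mpeg1. Below these, Ms4a6c (6.21 ± 0.11) and Fn1 (6.07 ± 0.33) overlapped, as did Ly86 (5.57 ± 0.17) with Ms4a6b (5.34 ± 0.15) and Ms4a6b with Cd300lf (5.23 ± 0.14), and Ms4a6d stood apart at 3.28 ± 0.33. The middle of the order closed up in DF and TFD. In DF, Ms4a6c (8.29 ± 0.02), Fn1 (8.21 ± 0.14) and Mpeg1 (8.18 ± 0.05) overlapped from neighbour to neighbour, and in TFD so did Mpeg1 (8.29 ± 0.05), Fn1 (8.23 ± 0.25) and Ms4a6c (8.07 ± 0.06). In TF it did not, since Mpeg1 (8.37 ± 0.16) overlapped Ms4a6c (8.27 ± 0.15), while Fn1 (7.72 ± 0.37) lay below them and overlapped Ly86 (7.41 ± 0.19). Cd300lf, level with Ms4a6b in WT, had no such overlap in any mutant genotype, at 5.23 ± 0.11 in DF, 4.54 ± 0.06 in TF and 4.79 ± 0.02 in TFD, where Ms4a6b was at 5.94 ± 0.06, 6.45 ± 0.31 and 5.87 ± 0.07 (SD).

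**Figure D3:**
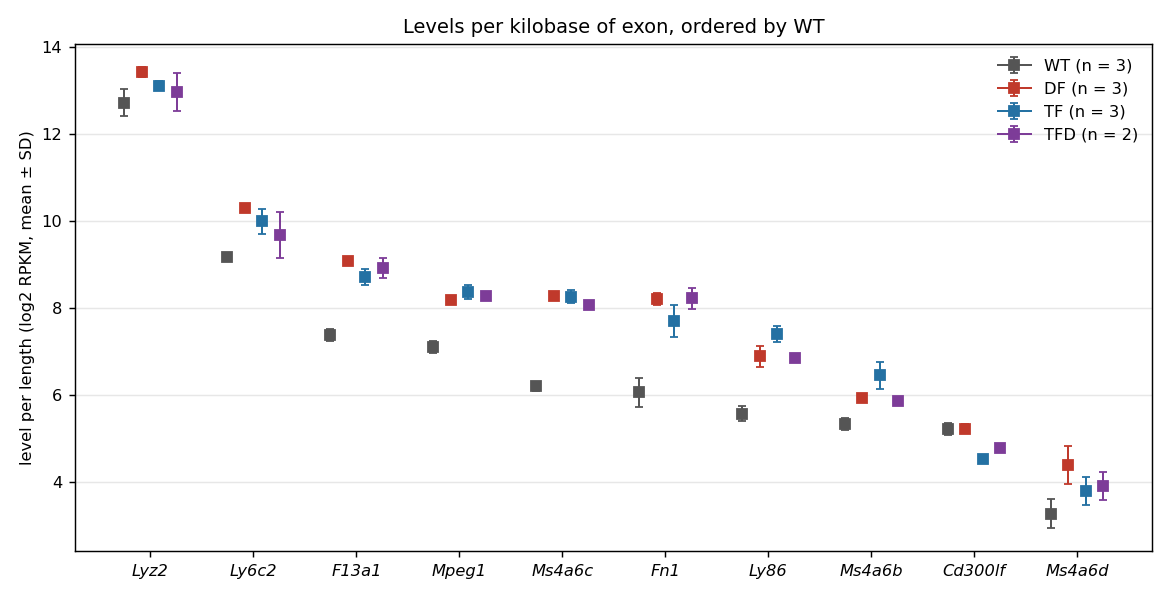
Level per kilobase of exon (vertical axis, log2 RPKM, mean ± SD) of each marker by genotype, ordered by the WT mean. Lyz2, Ly6c2 and F13a1 held the first places in each genotype and Ms4a6d the last, while Ms4a6c, Fn1 and Mpeg1 came close together in DF and TFD and Fn1 stayed lower in TF.

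The median spread of the markers between libraries of a genotype was below that over all genes in WT, DF and TFD, and above it in TF. The median SD over the markers was 0.15 log2 CPM (WT), 0.09 (DF), 0.18 (TF) and 0.15 (TFD), beside medians over all genes of 0.18, 0.16, 0.15 and 0.18. The widest marker was Fn1 in WT (0.33) and TF (0.37), Ms4a6d in DF (0.44) and Ly6c2 in TFD (0.54). The 2 TFD libraries parted for Ly6c2 and Lyz2, both higher in replicate 1, and not for Cd300lf (0.02) or Mpeg1 (0.05). The summed level of 11 neutrophil genes parted likewise, at 46740 CPM in TFD replicate 1 and 23280 in replicate 2, and its part in the Lyz2 difference was not tested.

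DF and TF, which differ in whether Dnmt3a or Tet2 is lost, were compared next. The DF cross also carried MxCre, which the study's methods do not name for the TF cross. The gene lost and the presence of Cre cannot be told apart here. Of 10 markers, 1 was higher and 2 were lower in DF than in TF, beside 1.67% and 4.27% of all genes. Cd300lf was 1.62-fold higher in DF (0.70 ± 0.10, adjusted p = 0.0036). Ms4a6b (−0.53 ± 0.14, adjusted p = 0.0405) and Ly86 (−0.51 ± 0.14, adjusted p = 0.0465) were lower in DF, with the libraries of DF and TF not overlapping for any of the 3. The Cd300lf call held under every alternative tried except the requirement of a 2-fold change. The other 2 were lost when DF replicate 2, DF replicate 3, TF replicate 1, TF replicate 3 or WT replicate 2 was left out, with adjusted p up to 0.170 for Ms4a6b and 0.172 for Ly86. Ms4a6b was also lost without DF replicate 1 (0.0854) and Ly86 without WT replicate 3 (0.0533). Both calls were also lost, at differences of about the same size, with a sex term (Ms4a6b −0.47, adjusted p = 0.073, and Ly86 −0.52, 0.0619) and with only the groups compared (−0.56, 0.0571, and −0.54, 0.0583). Genes of dendritic cells, which can express both genes, moved in the same direction, with 8 of 10 lower in DF than in TF and 0 higher, and a summed level of 130 to 201 CPM in DF, 310 to 744 in TF, 231 to 241 in WT and 208 to 422 in TFD. TF replicate 3, which had the highest Ms4a6b, stood apart in these sums, with 744 CPM of dendritic cell genes against 310 and 444 in the other TF libraries, 151 of B cell genes against 32.9 and 33.6, and 1656 of erythroid genes against 598 and 730. Without it Ms4a6b was at −0.40 (adjusted p = 0.170) and Ly86 at −0.55 (0.0795). The part of such cells in the Ms4a6b and Ly86 results was not tested. The other 7 markers were not called between DF and TF, at log2 fold changes from −0.19 for Mpeg1 to 0.63 for Ms4a6d, among which F13a1 (0.36 ± 0.14), Fn1 (0.47 ± 0.20) and Ms4a6d (0.63 ± 0.23) had unadjusted p values of 0.0252, 0.0395 and 0.0182, under a threshold of 0.05 that 19.0% of all genes met. Without TF replicate 3, Fn1 was at 0.30 (adjusted p = 0.634).

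By edgeR with all libraries, no marker was called between the triple mutant and either double mutant. Between DF and TFD, 0 of 10 were called, as was 0% of all genes. At an unadjusted p under 0.05 by edgeR there were 2 markers and 14.2% of all genes, and DESeq2 called 0 markers and 2.12% of all genes. The 2 were Ly6c2, 0.58 ± 0.21 higher in DF (adjusted p = 0.253), and Cd300lf, 0.44 ± 0.12 higher in DF (adjusted p = 0.138). Without TFD replicate 1, Ly6c2 was called (1.01, adjusted p = 0.0314), whereas without TFD replicate 2 its difference was 0.22 (0.999). Between TF and TFD, 0 of 10 were called, beside 0.0164% of all genes, with 4 markers and 8.77% of all genes at an unadjusted p under 0.05 by edgeR and with 1 marker and 1.08% of all genes called by DESeq2. Ms4a6b was 0.60 ± 0.16 and Ly86 0.55 ± 0.16 higher in TF than in TFD (adjusted p = 0.262 and 0.279), and Cd300lf and Fn1 were at −0.25 ± 0.11 and −0.49 ± 0.23 (0.561 and 0.567). Fn1 was at −0.31 without TFD replicate 1 (adjusted p = 0.635) and at −0.32 without TF replicate 3 (0.846). DESeq2 called Ms4a6b (adjusted p = 0.0366), and edgeR did so without TF replicate 2 (0.0463). A p that misses the threshold with 2 TFD libraries does not show that the levels are equal.

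The markers that adjoin in the genome were set against the genes between them. From Ms4a4c to Mpeg1 on chromosome 19 the table holds 14 genes. Ms4a4c, at the Ms4a6c end of the cluster, rose in DF (1.05, adjusted p = 3.73e-05), TF (1.58, 2.2e-06) and TFD (1.22, 3.49e-05), and between DF and TF it was lower in DF (−0.53, adjusted p = 0.0193), as Ms4a6b was. Between Ms4a6c and Ms4a6b lies Gm8369, which fell in DF (−1.25, adjusted p = 0.0219) and was not called in TF (−0.79) or TFD (−0.87). Ms4a4b, between Ms4a4c and Ms4a6c, was not called, at −0.40, −0.12 and −0.57. Further on, Ms4a3, a gene of granulocyte-monocyte progenitors, rose in DF only among these comparisons (0.89, adjusted p = 0.00982) and differed between DF and TF (adjusted p = 0.0353). Ms4a2, the mast cell and basophil IgE receptor chain, fell in TF (−1.11, adjusted p = 0.00282). Between Ms4a6d and Mpeg1, Stx3, a gene of membrane fusion, rose in DF (0.82, adjusted p = 0.000542), TF (0.61, 0.00429) and TFD (0.73, 0.00328), and Oosp1, Mrpl16, Patl1 and Osbp were not called in any of the 3. The rises were thus shared by some genes of this stretch and not by all.

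**Figure D4:**
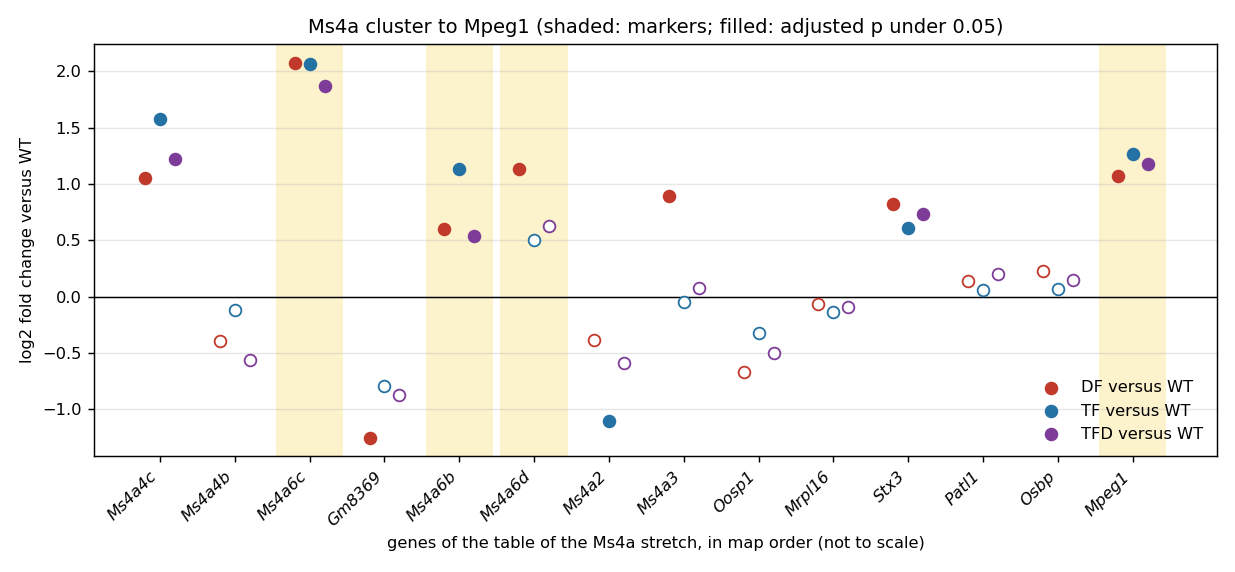
Log2 fold change versus WT (vertical axis) of the 14 genes of the table from Ms4a4c to Mpeg1 in map order, markers shaded, filled where the adjusted p was under 0.05. Ms4a6c rose most in this stretch, and genes with log2 fold changes on either side of 0 lie between the markers.

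The other members of the markers' families did not rise as a body. Of 7 other Ms4a genes, 3 rose and 1 fell in DF, 2 and 2 in TF, and 2 and 1 in TFD. In TFD versus WT these ran from Ms4a8a (1.55, adjusted p = 4.39e-05) to Ms4a1, which encodes the B cell protein CD20 (−6.34, adjusted p = 0.00141). Of 5 other Ly6 genes, 0 rose, 2 fell in DF, 1 in TF and 2 in TFD, and they ran from Ly6e (0.38, adjusted p = 0.141) to Ly6d, a gene of B cell progenitors (−4.34, adjusted p = 0.00157). Of 6 other Cd300 genes, 2 rose and 3 fell in DF, 2 and 1 in TF, and 2 and 2 in TFD, from Cd300lg (2.28, adjusted p = 1.28e-05) to Cd300c (−2.23, adjusted p = 0.0199).

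Other genes of monocytes moved in the direction of the markers. Of 20 monocyte receptors and regulators, 14 rose and 1 fell in DF, 14 and 1 in TF, and 12 and 0 in TFD, with medians of 0.89, 0.98 and 0.99 on the log2 scale. Ccr2, the receptor that draws classical monocytes from the marrow, rose most in TFD versus WT (by 2.47 in DF, 2.61 in TF and 2.35 in TFD on the log2 scale). Cd36, a scavenger receptor of monocytes and macrophages, was the lowest there (−0.47, adjusted p = 0.371) and fell in DF (−1.87, adjusted p = 0.00126). Genes of the patrolling, nonclassical type did not move as a body, with 3 of 12 higher and 2 lower in DF and in TF, and 2 higher and 1 lower in TFD. Among them Cx3cr1, a chemokine receptor of both monocyte types, was the highest in TFD versus WT (2.29, adjusted p = 4.63e-06) and Fcgr4, an Fc receptor of nonclassical monocytes, the lowest (−1.05, adjusted p = 0.00841). Of 9 genes of resident tissue macrophages, 1 rose in each genotype and 8, 3 and 5 fell in DF, TF and TFD, from Adgre1, the F4/80 gene (0.99, adjusted p = 2.23e-05), to Cd5l (−2.69, adjusted p = 0.0112). Of 10 granulocyte-monocyte progenitor genes, 7 rose in DF, 3 in TF and 4 in TFD and 0 fell, and in TFD they ran from Flt3 (1.94, adjusted p = 0.000552) to Cebpe, a regulator of granulocyte maturation (−0.40, adjusted p = 0.331).

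Most erythroid and B cell genes fell beside the rise of the monocyte markers, and part of the T and NK cell list did. Of 10 erythroid genes, 10 fell in DF, 8 in TF and 8 in TFD, with median log2 fold changes of −4.04, −1.25 and −2.06 and a summed level of 1597 to 2121 CPM in WT libraries, 303 to 441 in DF, 598 to 1656 in TF and 577 to 715 in TFD. Of 11 T and NK cell genes, 8, 5 and 6 fell, and 0 rose. Dendritic cell genes split by genotype, with 1 of 10 higher and 4 lower in DF, 6 and 0 in TF, and 4 and 2 in TFD. Of 9 stress and immediate early genes, 1, 1 and 2 rose and 2 fell in each genotype. The ends of these lists in TFD versus WT were Alas2 (−0.44, adjusted p = 0.434) and Klf1 (−2.78, 0.00328) among erythroid genes, Nkg7 (−0.04, 0.927) and Gzma (−2.85, 0.000655) among T and NK cell genes, and Xcr1 (2.82, 0.00747) and Siglech (−3.91, 0.00585) among dendritic cell genes. Among B cell genes they were Cd79b (−3.14, adjusted p = 4.63e-06) and Pax5, which had 237 to 419 counts in WT libraries and at most 3 in TFD. Among neutrophil genes they were Mmp9 (−0.37, adjusted p = 0.378) and Cxcr2 (−0.96, 0.0112), and among megakaryocyte and platelet genes Ppbp (1.67, 0.035) and Gp9 (−0.23, 0.744). The stromal and endothelial list ran from Pdgfrb (1.87, adjusted p = 0.00386) to Cdh5 (−0.70, 0.416), and the stress list from Atf3 (1.39, 0.00868) to Hspa1b (−4.12, 9.89e-05). Few counts lay behind some of these ends, with 1 to 5 for Xcr1 in WT libraries. Others differed widely between the TFD libraries, with 8 to 59 counts for Siglech and 56 to 394 for Ppbp. The part of the shifts in these lists in the marker results was not tested.

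**Figure D5:**
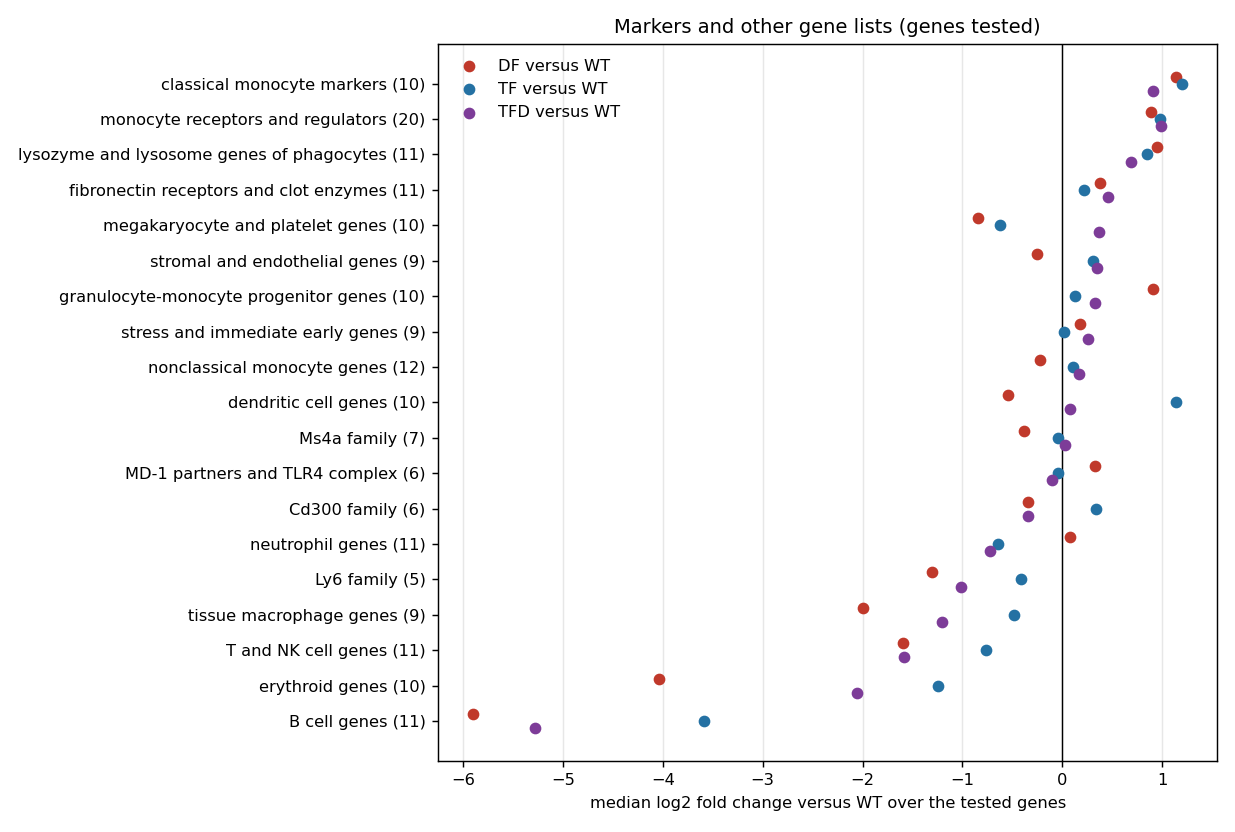
Median log2 fold change versus WT (horizontal axis) over the tested genes of the markers and of the other lists, 1 point for each mutant genotype. The markers and the monocyte receptors and regulators lie near 1, and the B cell and erythroid lists lie lowest.

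The genes outside the markers whose levels were most like them over the 11 libraries were found by Pearson's r with the mean of the 10 standardised marker levels, as a description. They were Tm2d2 (r = 0.981), Ifngr1, a chain of the interferon gamma receptor (0.981), Cd302, a C-type lectin of phagocytes (0.980), Sdr42e1 (0.979) and Athl1 (0.974). The libraries fall into WT and mutants, which are what these values mostly separate. Ifngr1 was at 7.34 ± 0.09 log2 CPM in WT libraries, and at 8.14 ± 0.06, 7.98 ± 0.11 and 7.99 ± 0.01 in those of the mutant genotypes DF, TF and TFD (SD). Measured likewise against the other 9 markers, Ms4a6c (0.945), F13a1 (0.941) and Fn1 (0.925) followed the rest most closely, Ms4a6b least among those that rose (0.666), and Cd300lf ran against them (−0.410).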

How the data were processed

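RNA from whole bone marrow mononuclear cells was depleted of globin transcripts and sequenced as stranded total RNA, per the labels. After a FastQC check the authors ran STAR against mm10, used only reads with 1 alignment in featureCounts on the refGene annotation, and dropped genes that did not exceed 0.5 CPM in more than 3 samples. Tool versions and the counting strand are not given in the sources used here. What they deposited are whole-number counts for 12199 genes. The deposited log2 CPM values equal edgeR's with a prior count of 0.25 to within 5e-09, so they carry TMM factors. The authors also deposited gene lengths in bases, another column type, used here for RPKM. The columns of 0 other samples were left out. Groups came from the sample labels, and TFD replicate 3 was not analysed here.

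Counts were tested in R 4.3.3 with edgeR 4.0.16 (TMM factors, 0.924 to 1.04, quasi-likelihood F test, 1 mean for each of the 4 genotypes in 1 model) over the 12175 genes above 0.5 CPM in more than 3 of 11 libraries. The Benjamini-Hochberg adjustment ran over all of them, with calls at an adjusted p under 0.05, and SE derived from the F statistic. The procedure was tested on simulated data. The alternatives were DESeq2 1.42.0, library totals, RLE factors, no filter, filterByExpr, only the groups compared, the replicate number as a block, a sex term (Xist at 10000 reads or more), a 2-fold minimum, and each library left out. Library totals ranged from 8274153 to 15900904, and having only 2 or 3 libraries for each genotype limits the precision.

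The markers and the 18 other gene lists were chosen with earlier results of these data known. The text names all 10 markers, the targeted genes, the members at either end of each other list by TFD versus WT, partners, paralogs and map neighbours of markers, genes on the opposite strand, and the 5 genes most like the markers. Neighbours and opposite-strand genes were named after their values were seen. Promoter windows were from RefSeq (GRCm38.p6) and shared 50-base stretches from GENCODE transcripts, read with Python 3.11.15 and pandas 2.3.3. Figures were drawn with matplotlib 3.10.9.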

Additional observations from a re-analysis of the deposited data

How the results depend on the processing

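The counts of markers called against WT stayed within 1.5 times of the main count under every alternative, at 7 to 9 in DF, 6 to 8 in TF and 5 to 8 in TFD, and of 570 single-marker values against WT, 545 kept their direction and their side of the threshold. The comparison of DF with TF was the least stable. Its 3 calls became 0 with a 2-fold minimum and 1 with a sex term, with only the groups compared, and with the replicate block, where Ms4a6b (adjusted p = 0.0644) and Ly86 (0.0567) were lost. Leaving out 1 library gave 1 to 3 there, and 0 to 1 in DF versus TFD and in TF versus TFD. DESeq2 called 1 in TF versus TFD, beside 1.08% of all genes. Ly6c2 in TFD versus WT was called by DESeq2 (adjusted p = 0.0293) and with a sex term (0.00575). The replicate numbers do not pair the libraries, since the correlations of same-numbered libraries ran from −0.299 to 0.247 and no number marks a shared litter or day, and the replicate block changed no other count of markers called (9, 8 and 7 against WT).

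Signs turned only for differences that were not called. Cd300lf in DF versus WT was −0.038 by DESeq2, −0.0795 by library totals, −0.0386 by RLE factors, −0.0268 with a sex term and −0.0355 with only the groups compared. Ms4a6c in DF versus TF was −0.0130 by DESeq2, −0.0737 by library totals, −0.0129 by RLE factors, −0.00316 with a sex term and −0.0196 with only the groups compared. By library totals Ms4a6b (−0.0225) and Ly86 (−0.0499) were lower in DF than in TFD, and with the replicate block Fn1 was higher in DF than in TFD (0.12). With 1 library left out, the log2 fold changes ranged from −0.108 to 0.0596 for Cd300lf in DF versus WT, −0.10 to 0.52 for Lyz2 in TFD versus WT, −0.0516 to 0.0962 for Ms4a6c in DF versus TF, −0.10 to 0.12 for Ly86 and −0.22 to 0.16 for Fn1 in DF versus TFD, and −0.0576 to 0.715 for Ly6c2, −0.34 to 0.13 for Ms4a6d and −0.16 to 0.46 for Lyz2 in TF versus TFD. The cause of these turns was not tested. FilterByExpr removed no gene of the 12199 and gives the same as leaving the filter out. When 1 TFD library is left out, the other is assumed to vary like the libraries of the other genotypes.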
